A study of Homo sapiens with 16 samples.

Results

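Nutlin and GSK2830371, given together for 24 h, were compared with the 0.2% DMSO vehicle in TPC1, an established line of human papillary thyroid carcinoma that expresses wild type p53. The comparison takes 4 of the 16 RNA-seq libraries of the study, namely the DMSO libraries of TPC1 and the libraries given both drugs, 2 of each, chosen by line and treatment and not by any measured value. Cells of the combination group received 10 µM nutlin, which keeps MDM2 away from p53, plus 25 µM of GSK2830371, an inhibitor of the phosphatase PPM1D, and the DMSO group received neither drug. The other 4 TPC1 libraries, of nutlin alone and of GSK2830371 alone, and the 8 libraries of K1, a further papillary thyroid carcinoma line treated the same way, are used below only to show where the combination stands. Each group comes from 1 line at 1 time point, which limits it as a model of the tumor.

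p53 is a transcription factor that restrains growth and can end in cell death. MDM2 binds p53, blocks its activation domain and marks it for degradation, whereas PPM1D (also called WIP1) removes activating phosphates from p53 and from the kinases upstream of it. Both are themselves encoded by p53 target genes and so close negative feedback loops. A separate pathway, the integrated stress response, acts through phosphorylation of the translation factor eIF2α by 1 of several kinases, which lowers general translation and raises the protein ATF4, an activator of genes for amino acid supply and, under lasting stress, of genes linked to death.

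TPC1 libraries held between 30789887 and 76648552 counts, with 36896529 and 72453522 in the DMSO libraries and 36878168 and 62853375 in the combination libraries. They are named by the numbers 1 and 3 in the deposited columns, and values are given in that order as CPM (counts scaled to a common library total, with TMM factors). The methods call replicates biological and separately prepared, while the labels name no culture for each library. The p-values measure the spread between the 2 libraries of a group, pooled over all groups fitted together. Thyroid identity was visible only in part. *PAX8*, a transcription factor of thyroid follicular cells, stood at 323 and 326 CPM under DMSO and 335 and 291 under both drugs, while *TSHR* and *NKX2-1*, defining genes of the differentiated thyroid, were below the filter on low counts. Marker genes of blood cells summed to 34.8 and 37.4 CPM under DMSO and to 57.4 and 45.7 CPM under both drugs, nearly all of it *CD68*, a lysosomal membrane gene. *PTPRC*, the general leukocyte marker, was not among the tested genes.

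A large share of the transcriptome stood at another level under both drugs. Of 15273 genes tested, 3441 were raised and 3309 were lowered, which is 22.5% and 21.7% of the genes and 44.2% together, by the quasi-likelihood test of edgeR after Benjamini-Hochberg adjustment (adjusted p below 0.05 and a change beyond 1.5-fold). Changes beyond 4-fold numbered 929 upward and 707 downward, and beyond 32-fold 182 upward and 84 downward. The median log2 change of all tested genes was 0.00. CPM values are relative to the library total, and in bulk RNA fewer cells of a type and less RNA per cell cannot be told apart.

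The changes were also read within each library number. Within library number 1 and within library number 3, the combination lay above DMSO for 3440 of the 3441 raised genes and below it for 3307 of the 3309 lowered genes. These genes were called from the same libraries, so this agreement was largely set by the call and is no separate test. Across 12308 genes that averaged 1 CPM or more, the 2 within-number differences correlated at 0.977, a correlation across genes, which are not independent replicates. CPM gained by raised genes summed to 203970 and CPM lost by lowered genes to 171589.

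**Figure D1:**
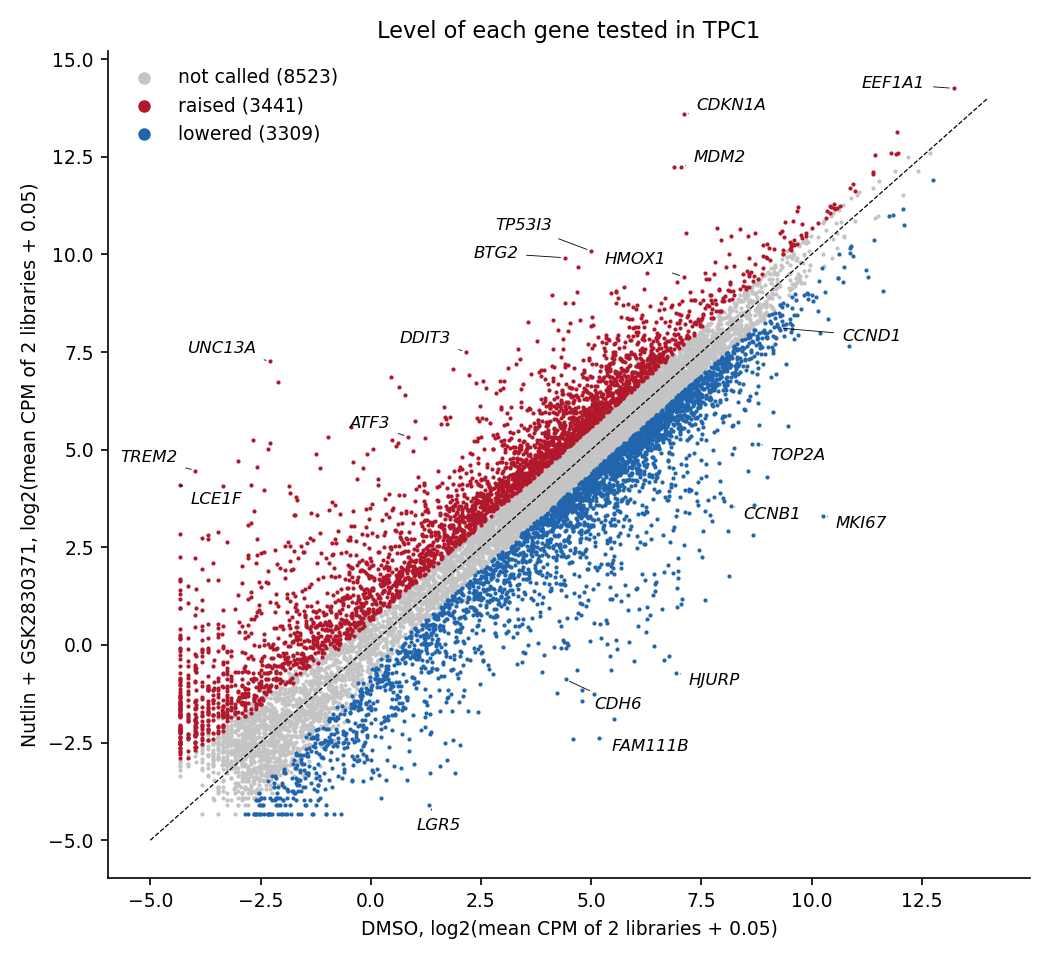
Level of each tested gene in TPC1 as log2 of the mean CPM plus 0.05, under DMSO on the x axis and under both drugs on the y axis, with 1 point per gene in red (raised), blue (lowered) or grey and the dashed line marking equal levels. *CDKN1A* and *MDM2* lie far above the diagonal at high levels and mitotic genes such as *MKI67* far below it.

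Genes of the p53 repressors and arrest factors gave some of the largest gains in CPM. *CDKN1A* (p21, an inhibitor of cyclin-dependent kinases, GRCh37 chromosome 6, 36644237 to 36655114, plus strand) was measured at 127 and 149 CPM under DMSO and at 11365 and 13227 CPM under both drugs. That is an 88.9-fold rise, or 6.47 ± 0.15 on the log2 scale (SE, n = 2 libraries per group, edgeR adjusted p = 3.2e-09), with groups far apart. Its share of all counts went from 0.0128% and 0.015% to 1.11% and 1.27%. By CPM per kilobase of exon, *CDKN1A* ranked 813 under DMSO and 2 under the combination among 13513 genes with a known length.

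*MDM2* (chromosome 12, 69201957 to 69239324, plus strand), the gene of the ligase that nutlin keeps from p53, was at 141 and 123 CPM under DMSO and at 4848 and 4892 CPM under both drugs, a 36.9-fold rise (log2 5.21 ± 0.11, edgeR adjusted p = 2.6e-09). *PPM1D* (chromosome 17, 58677554 to 58743641, plus strand), which encodes the phosphatase inhibited by GSK2830371, went from 15.1 and 16.6 CPM to 47.8 and 50.2 CPM (3.09-fold, log2 1.63 ± 0.09). The *PPM1D* level was 58.6 and 60.1 CPM under nutlin alone and 9.06 and 9.87 CPM under GSK2830371 alone, so both combination libraries lay below both nutlin libraries, by a log2 difference of -0.28 that did not pass the fold limit.

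Of 10 tested members of the list of p53 repressors and feedback genes, 7 were raised and none lowered, with a median log2 change of 1.31 against 0.00 for all genes. *TRIM22*, an interferon and p53 target of the tripartite motif family, had 0.349 and 0.11 CPM under DMSO and 13.2 and 16.3 CPM under both drugs (log2 6.23 ± 0.31). *CCNG1*, whose cyclin G protein takes part in p53 feedback, went from 68.2 and 77.9 CPM to 247 and 314 CPM (log2 1.94 ± 0.13).

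Every one of the 23 tested p53 targets of arrest and growth restraint was raised, with a median log2 change of 3.18, where 22.5% of all genes were raised. *GDF15*, a secreted stress cytokine, stood at 107 and 127 CPM under DMSO and at 4693 and 5002 CPM under both drugs (41.3-fold, log2 5.37 ± 0.12). *BTG2*, an antiproliferative cofactor of mRNA deadenylation, went from 21 and 21.2 CPM to 923 and 1007 CPM (45.7-fold, log2 5.51 ± 0.11). For each of these genes both treated libraries exceeded both DMSO libraries many times over.

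Of 18 p53 targets of DNA repair and metabolism, 17 were raised, and *POLK*, a translesion polymerase, stayed short of the fold limit at 21.1 and 17.7 CPM against 21.5 and 22.1 CPM. *TP53I3*, a quinone oxidoreductase, was at 29.5 and 34.3 CPM under DMSO and at 1018 and 1159 CPM under both drugs (log2 5.09 ± 0.12). *FDXR*, the ferredoxin reductase of mitochondria, rose from 23.6 and 27.8 CPM to 503 and 538 CPM (log2 4.34 ± 0.11). *PANK1*, a pantothenate kinase of coenzyme A synthesis, rose from 10.3 and 10 CPM to 174 and 209 CPM (log2 4.24 ± 0.11).

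p53 binds DNA as a tetramer on paired decamers. To let these sequences stand beside the expression values, the GRCh37 genome was searched within 2500 bases of each gene's annotated 5′ end for the p53 response element, as 2 abutting decamers of 20 bases with exact cores and at most 2 of the 12 flanking positions off. The matches below belong to raised genes of the arrest and death lists and were picked after their values were seen, to show how the element looks beside small and large changes. Capitals mark the 4-base core of each decamer.
*CDKN1A*, chr6:36644226-36644245, plus strand, across the annotated 5′ end: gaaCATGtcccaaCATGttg
*BTG2*, chr1:203272770-203272789, plus strand, 1849 bases upstream: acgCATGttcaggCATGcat
*GADD45A*, chr1:68152458-68152477, plus strand, intron: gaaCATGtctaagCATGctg
*ZMAT3*, chr3:178787976-178787995, minus strand, intron: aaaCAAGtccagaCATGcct
*EDA2R*, chrX:65858405-65858424, minus strand, intron: gggCAAGtcagggCTTGtgt
*FAS*, chr10:90751066-90751085, plus strand, overlapping an exon: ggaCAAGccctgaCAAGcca
*PMAIP1*, chr18:57566781-57566800, plus strand, 447 bases upstream: gggCTTGtttaccCAAGtct
*AEN*, chr15:89164537-89164556, plus strand, 31 bases upstream: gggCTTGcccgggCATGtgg

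The log2 changes beside these elements ran from 1.22 for *AEN*, a p53-induced nuclease, to 6.47 for *CDKN1A*. Matches not printed stood beside smaller and larger changes. *PLK2* had a match 2154 bases upstream with 0 flanking positions off and a log2 change of 0.63. *GLS2* had a match in an exon with 2 positions off and a log2 change of 9.61. *GADD45A*, a growth arrest gene of the damage response, was at 22.4 and 25.6 CPM under DMSO and at 398 and 464 CPM under both drugs (log2 4.16 ± 0.11), and *ZMAT3*, an RNA-binding zinc finger gene with no flanking position off, at 54.8 and 42.3 against 489 and 459 CPM (log2 3.29 ± 0.12). A match was found near 316 of 13513 tested genes with a known 5′ end (2.34%), near 4.04% of raised genes, near 1.65% of lowered genes and near 1.93% of genes that were not called. Among genes raised beyond 16-fold the share was 8.85% (23 of 260). It was 33.3% (7 of 21) in the arrest list. In the death list 6 of 20 genes had a match, and in the mitotic list 0 of 69. A match is a description of the sequence, and no binding was measured in these libraries.

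Of 72 tested genes of mitotic kinases, spindle and kinetochore, 71 were lowered, with a median log2 change of -4.60, where 21.7% of all genes were lowered. *MKI67*, the Ki-67 antigen of cycling cells, was at 1416 and 1049 CPM under DMSO and at 11.6 and 8.07 CPM under both drugs (log2 -6.98 ± 0.24, edgeR adjusted p = 1.9e-08). *HJURP*, the chaperone of the centromeric histone, went from 119 and 126 CPM to 0.387 and 0.729 CPM (log2 -7.68 ± 0.17). The remaining member, *BUB3* of the spindle checkpoint, stood at 242 and 260 against 161 and 182 CPM, a log2 difference of -0.55 short of the fold limit.

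DNA replication followed the same direction. Of 46 genes of origin licensing and replication, 43 were lowered with a median of -2.52, and *CLSPN*, the claspin gene of the replication checkpoint, went from 81.4 and 72.2 CPM to 1.85 and 1.21 CPM (log2 -5.70 ± 0.16). *PCNA*, the sliding clamp and also a p53 target, was the member that rose, from 173 and 198 CPM to 314 and 385 CPM (log2 0.92 ± 0.12). *LIG1*, the replicative ligase, was at 79.2 and 80.3 against 68.6 and 70.1 CPM.

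Ribonucleotide reductase split by subunit. *RRM2*, its subunit of S phase, stood at 396 and 422 CPM under DMSO and at 6.58 and 7.4 CPM under both drugs (log2 -5.86 ± 0.11). *RRM2B*, the p53-inducible counterpart, stood at 51.2 and 44 CPM and then at 419 and 444 CPM (log2 3.18 ± 0.10). Of 11 deoxynucleotide supply genes, *RRM2B* was the 1 raised and 8 were lowered.

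Of 21 cyclins and cell cycle CDKs, 19 were lowered with a median of -2.44. *CCNA2*, the cyclin of S and G2 phases, fell from 129 and 135 CPM to 1.74 and 2.32 CPM (log2 -5.99 ± 0.14), and *CCNE2*, a cyclin of the entry into S phase, from 46.4 and 44.5 CPM to 0.0553 and 0.381 CPM (log2 -7.46 ± 0.27). Those *CCNE2* values rest on 2 and 23 counts. The single raised member, looked up after its values were seen, was *CCND2* (cyclin D2), with no count under DMSO and 0.526 and 0.447 CPM under both drugs. *CDK6*, an early G1 kinase, had 140 and 93.7 against 89.3 and 82.1 CPM, a log2 difference of -0.45 short of the fold limit.

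Among E2F factors and pocket proteins, 9 of 19 genes were lowered and 1 was raised, against 21.7% and 22.5% of all genes. *E2F2*, an activating E2F, fell from 26.2 and 21.9 CPM to 0.194 and 0.0828 CPM (log2 -7.56 ± 0.24), and *FOXM1*, which activates mitotic genes, from 259 and 262 CPM to 14.6 and 11.2 CPM (log2 -4.34 ± 0.12). The raised member was *E2F7*, an E2F repressor and p53 target, with 68 and 51 CPM under DMSO and 210 and 155 CPM under both drugs (log2 1.62 ± 0.17). Of 32 homologous recombination and Fanconi genes, 29 were lowered and none raised, and *EXO1*, the end-resecting exonuclease, went from 64.4 and 70.6 to 1.63 and 2.05 CPM (log2 -5.17 ± 0.13).

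CDK inhibitors moved both ways, 3 of 8 raised and 3 lowered, where 22.5% of all genes were raised and 21.7% lowered. *CDKN1C* (p57) went from 20.9 and 20.2 CPM to 257 and 199 CPM (log2 3.47 ± 0.13) and *CDKN2B* (p15) from 8.75 and 8.18 to 58.5 and 64.2 CPM (log2 2.86 ± 0.09). *CDKN2C* (p18) fell from 44.7 and 46.8 to 2.99 and 3.96 CPM (log2 -3.70 ± 0.14). *CDKN1B* (p27) was at 49.3 and 51.2 CPM under DMSO and at 44.4 and 45.8 CPM under both drugs, a log2 difference of -0.15 ± 0.07.

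Mitotic promoters often hold the cell cycle homology region downstream of CCAAT boxes bound by NF-Y. Promoter sequences of 6 lowered genes are shown so that the motifs counted below can be seen in place. They are RefSeq promoter stretches of GRCh38.p14, taken upstream of the start, with TTTGAA and CCAAT in capitals on either strand, and the genes were picked after their values were seen.
*PLK1*, chr16:23678769-23678878, plus strand: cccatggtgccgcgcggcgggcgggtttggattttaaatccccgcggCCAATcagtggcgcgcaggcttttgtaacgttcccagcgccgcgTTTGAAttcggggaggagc
*CCNB2*, chr15:59105016-59105135, plus strand: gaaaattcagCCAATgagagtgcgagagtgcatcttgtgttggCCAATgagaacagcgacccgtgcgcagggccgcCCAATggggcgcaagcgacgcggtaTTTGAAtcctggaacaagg
*CDC20*, chr1:43358861-43358970, plus strand: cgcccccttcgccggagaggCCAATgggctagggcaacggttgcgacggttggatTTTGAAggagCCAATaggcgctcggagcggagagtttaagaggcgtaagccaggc
*MKI67*, chr10:128126424-128126533, minus strand: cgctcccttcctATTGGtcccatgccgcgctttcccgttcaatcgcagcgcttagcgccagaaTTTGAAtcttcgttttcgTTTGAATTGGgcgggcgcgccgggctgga
*HJURP*, chr2:233854596-233854715, minus strand: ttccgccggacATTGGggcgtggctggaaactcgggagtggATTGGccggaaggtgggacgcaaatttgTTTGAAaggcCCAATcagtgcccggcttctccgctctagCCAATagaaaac
*KIF23*, chr15:69414229-69414338, plus strand: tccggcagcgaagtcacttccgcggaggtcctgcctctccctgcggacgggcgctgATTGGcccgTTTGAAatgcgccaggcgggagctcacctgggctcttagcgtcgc

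In the *MKI67* sequence the second TTTGAA and a CCAAT on the other strand share letters. *PLK1*, the polo-like kinase of mitosis, was at 269 and 291 CPM under DMSO and at 3.62 and 3.10 CPM under both drugs (log2 -6.39 ± 0.12). *CDC20*, an activator of the anaphase-promoting complex, went from 393 and 433 to 10.4 and 13.6 CPM (log2 -5.10 ± 0.14). *KIF23*, a kinesin of cytokinesis, went from 130 and 121 to 3.26 and 4.01 CPM (log2 -5.09 ± 0.13), and the mitotic cyclin gene *CCNB2* from 77.3 and 87.7 to 6.03 and 6.89 CPM (log2 -3.67 ± 0.10).

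The motif shares were counted over the 7694 tested genes with exactly 1 RefSeq promoter, in the 250 bases before and 50 after the start and on both strands. TTTGAA was present in 9.36% of all promoters, 8.03% of those of raised genes and 12.7% of those of lowered genes. The share was 18.5% for genes lowered 4- to 16-fold, 45.4% (44 of 97) for genes lowered beyond 16-fold and 70.0% (35 of 50) for the mitotic list. CCAAT was present in 37.3% of all promoters, in 57.7% of those lowered beyond 16-fold and in 74.0% of the mitotic list. It was also in 93.8% (15 of 16) of the endoplasmic reticulum folding list, where 6 genes were raised and 3 lowered. In the mostly lowered glycolysis list the share was 27.3% (3 of 11). A high CCAAT share was thus not confined to lists that were mostly lowered. Both motifs together were found in 4.16% of all promoters and in 58.0% (29 of 50) of the mitotic list. The E2F motif, searched as TTTGGCGC or TTTCCCGC, was present in 3.77% of all promoters and 11.3% of those lowered beyond 16-fold. These shares describe letters in a window, and the mitotic list overlaps the strongly lowered genes.

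**Figure D2:**
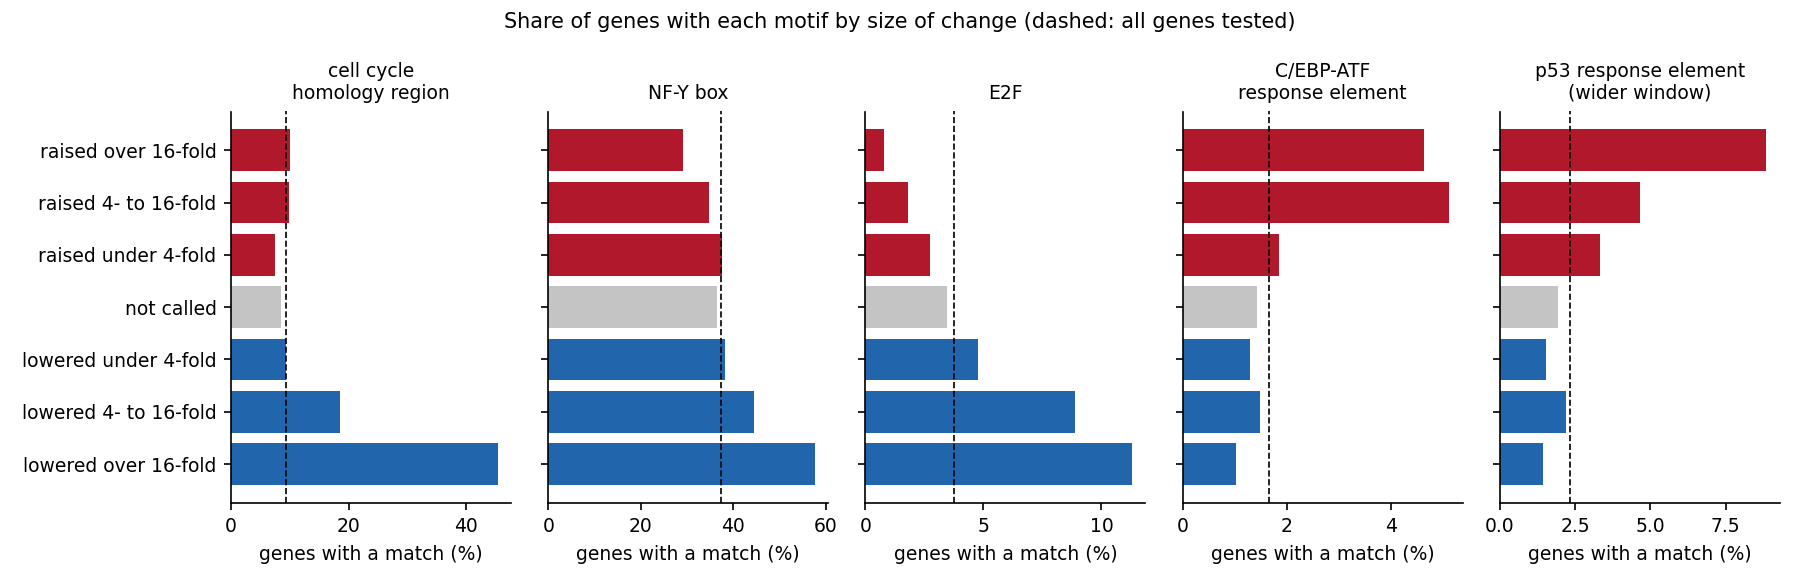
Share of genes with a match (x axis, percent) in a panel for each motif, for genes grouped by their change under the combination in TPC1 (y axis), with the dashed line at the share of all tested genes. Promoters with TTTGAA are most frequent among genes lowered beyond 16-fold (45.4%), and p53 response elements among genes raised beyond 16-fold (8.85%).

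Death genes of the p53 program rose in large part. Of 20 tested members, 15 were raised and 3 lowered, with a median log2 change of 1.55. For all genes the shares were 22.5% raised and 21.7% lowered. *BBC3* (PUMA, a BH3-only protein that opposes prosurvival BCL2 proteins, chromosome 19, 47724079 to 47736023, minus strand) was at 7.65 and 8.58 CPM under DMSO and at 98.2 and 116 CPM under both drugs (13.2-fold, log2 3.72 ± 0.12, edgeR adjusted p = 1.2e-08). *FAS*, a death receptor, stood at 19 and 20.8 and then at 152 and 182 CPM (log2 3.07 ± 0.12), and *EDA2R*, a receptor of the same superfamily, at 14 and 14 and then at 124 and 128 CPM (log2 3.17 ± 0.08). *TNFRSF19*, a further receptor of that superfamily, fell from 7.79 and 6.5 to 0.83 and 1.42 CPM (log2 -2.60 ± 0.22).

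In the BCL2 family, 6 of 12 effector and BH3-only genes were raised and 2 lowered, and 3 of 5 prosurvival genes were raised and 1 lowered. Over all genes 22.5% were raised and 21.7% lowered. The raised prosurvival count was 2 with scaling by library size alone or with no filter beyond 1 count. *BAX*, a pore-forming effector, went from 108 and 115 to 308 and 315 CPM (log2 1.48 ± 0.08). *PMAIP1* (NOXA) was at 27.1 and 25.3 CPM under DMSO, at 23.9 and 24.3 CPM under nutlin alone and at 67.7 and 85.6 CPM under both drugs (log2 1.55 ± 0.11 against DMSO and 1.67 against nutlin, where it was called). On the prosurvival side, *BCL2L1* (BCL-XL) rose from 203 and 220 to 496 and 492 CPM (log2 1.22 ± 0.07), whereas *MCL1* stood at 448 and 434 against 387 and 427 CPM, a log2 difference of -0.12 ± 0.08.

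Caspases and their regulators were divided, 8 of 23 raised and 5 lowered, where 22.5% of all genes were raised and 21.7% lowered. *CASP10*, an initiator caspase, went from 4.05 and 3.86 to 23 and 21.3 CPM (log2 2.49 ± 0.11) and *APAF1*, the scaffold of the apoptosome, from 41.3 and 34.6 to 116 and 105 CPM (log2 1.54 ± 0.11). *CFLAR* (c-FLIP), which blocks caspase activation at death receptors, also rose, from 51.6 and 44.3 to 128 and 126 CPM (log2 1.41 ± 0.10). *BIRC5* (survivin), a caspase inhibitor that also serves mitosis, fell from 174 and 190 to 4.48 and 4.95 CPM (log2 -5.26 ± 0.11).

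Of 16 stress-response transcription factors, 9 were raised and 1 lowered against DMSO, and 9 stood higher than under nutlin alone, as did 6.46% of all genes. *ATF4* (chromosome 22, 39915700 to 39918688, plus strand) was at 616 and 693 CPM under DMSO, at 476 and 499 CPM under nutlin and at 1007 and 1074 CPM under both drugs. Its rise over DMSO was 1.59-fold (log2 0.67 ± 0.09, edgeR adjusted p = 1.4e-04) and was lost without DMSO library 1 (log2 0.585, short of the fold limit), and its difference from nutlin was log2 1.09 ± 0.09. These are mRNA levels, and ATF4 is controlled to a large part in translation, which was not measured in these libraries.

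*DDIT3* (CHOP, a stress factor linked to death, chromosome 12, 57910371 to 57915520, minus strand) stood at 4.08 and 4.75 CPM under DMSO and at 210 and 154 CPM under both drugs, a 40.7-fold rise (log2 5.35 ± 0.17, edgeR adjusted p = 1.3e-08). Either drug alone left it at 13.5 and 13.9 CPM (nutlin) or 13.2 and 12.4 CPM (GSK2830371), so that both combination libraries lay more than 10-fold above all single-drug libraries. *ATF3* (chromosome 1, 212738676 to 212794119, plus strand), a target of both p53 and ATF4, was at 1.77 and 1.72 CPM under DMSO, 5.65 and 5.6 under nutlin and 37.6 and 42.8 under both drugs (log2 4.53 ± 0.16 against DMSO and 2.84 ± 0.14 against nutlin). *NUPR1*, a chromatin-associated stress protein, went from 71.3 and 83.5 to 782 and 699 CPM (log2 3.26 ± 0.10).

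Genes downstream of ATF4 showed the same contrast with nutlin. Of 21 other ATF4 targets, 15 were raised and 1 lowered against DMSO, with a median of 1.20, and 13 were higher than under nutlin. For all genes the shares were 22.5% raised and 21.7% lowered against DMSO, and 6.46% higher than under nutlin. *CHAC1* (chromosome 15, 41245160 to 41248710, plus strand), an enzyme that degrades glutathione, was at 26.5 and 27.4 CPM under DMSO, 10.3 and 9.69 under nutlin, 84.7 and 89 under GSK2830371 and 299 and 340 under both drugs. Its difference from nutlin, log2 5.00 ± 0.10 (edgeR adjusted p = 4.5e-08), was the largest among the genes that the naming rule took from that contrast. *SESN2*, a sestrin that restrains mTORC1 and is a target of p53 as well as ATF4, rose from 47.1 and 46.8 to 547 and 503 CPM (log2 3.48 ± 0.08).

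The promoter of *CHAC1* is printed because it holds the C/EBP-ATF response element, searched as TGATGNAA, which reads on the minus strand here and is given in capitals.
*CHAC1*, GRCh38.p14, chr15:40953241-40953340, plus strand: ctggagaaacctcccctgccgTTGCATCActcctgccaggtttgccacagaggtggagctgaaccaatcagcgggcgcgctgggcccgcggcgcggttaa
This motif was present in 1.65% of all single promoters, in 5.11% of those of genes raised 4- to 16-fold, in 4.62% of those raised beyond 16-fold and in 4.61% of those higher than under nutlin.

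Amino acid synthesis genes were divided against DMSO and mostly higher against nutlin. Of 21 enzymes of amino acid synthesis and one-carbon metabolism, 8 were raised and 3 lowered against DMSO, and 13 were higher than under nutlin. Over all genes 22.5% were raised and 21.7% lowered against DMSO, and 6.46% were higher than under nutlin. *ASNS*, asparagine synthetase, stood at 68.2 and 78.6 CPM under DMSO, 54.2 and 56.6 under nutlin and 222 and 272 under both drugs (log2 1.75 ± 0.12 against DMSO). *PCK2*, the mitochondrial phosphoenolpyruvate carboxykinase, stood at 49.2 and 51.5, 27.1 and 28.5, and 157 and 164 CPM in the same order (log2 1.67 ± 0.07). *SHMT1*, the cytosolic serine hydroxymethyltransferase, went the other way, from 37.7 and 41.6 to 4.9 and 5 CPM (log2 -3.0 ± 0.11).

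Of 17 amino acid transporters, 6 were raised and 5 lowered, where 22.5% of all genes were raised and 21.7% lowered. Against nutlin 5 transporters were higher and 1 was lower, where 6.46% of all genes were higher and 5.66% lower. *SLC7A11*, the cystine transporter, was at 48.9 and 28.9 CPM under DMSO, 19.9 and 16.4 under nutlin and 124 and 108 under both drugs (log2 1.58 ± 0.22). *SLC3A2*, its heavy chain partner, went from 561 and 573 to 1125 and 1136 CPM (log2 0.99 ± 0.07). Of 20 cytosolic aminoacyl-tRNA synthetases, 4 were raised, 4 were lowered and 8 were higher than under nutlin, led by *SARS*, the seryl-tRNA synthetase, with 180 and 203 CPM under DMSO and 719 and 761 CPM under both drugs (log2 1.95 ± 0.09).

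Few mRNAs of the upstream side of the pathway were raised, and the lowered share was near that of all genes. Over all genes 22.5% were raised and 21.7% lowered. Among 15 genes of eIF2α kinases, phosphatase subunits and eIF2 factors, 1 was raised and 3 were lowered. The raised gene was *PPP1R15A* (GADD34), which brings a phosphatase to eIF2α, with 30.5 and 34.6 CPM under DMSO and 228 and 161 CPM under both drugs (log2 2.57 ± 0.16). *EIF2AK1* (HRI, the heme-regulated eIF2α kinase, chromosome 7, 6061878 to 6098806, minus strand) was at 158 and 175 CPM under DMSO and at 115 and 127 CPM under both drugs, a log2 difference of -0.45 ± 0.09 short of the fold limit.

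**Figure D3:**
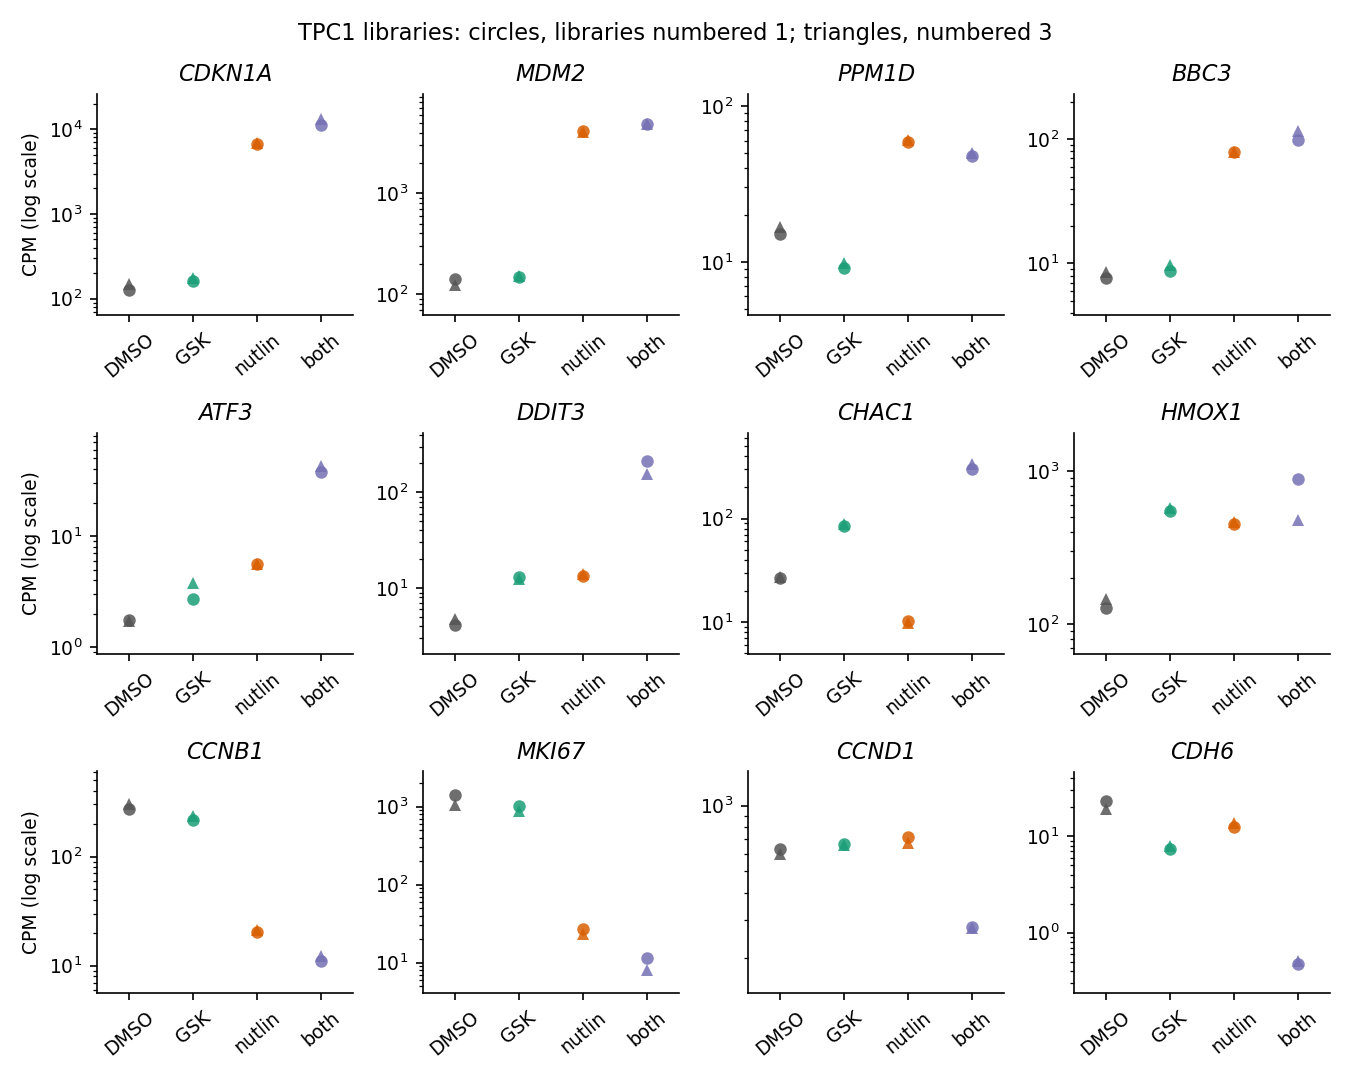
CPM (y axis, log scale, set for each panel) of 12 genes in each TPC1 library under DMSO, GSK2830371, nutlin and both drugs (x axis), with circles for libraries numbered 1 and triangles for those numbered 3. *DDIT3* stays below 14 CPM under every single treatment and reaches 154 and 210 CPM under both drugs, whereas *MDM2* is at 4084 CPM or more under nutlin with or without GSK2830371.

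Heme and iron genes moved both ways, and the rise of *HMOX1* came with uneven libraries. *HMOX1* (heme oxygenase 1, which breaks down heme, chromosome 22, 35776354 to 35790207, plus strand) was at 128 and 146 CPM under DMSO and at 891 and 481 CPM under both drugs (5.01-fold, log2 2.33 ± 0.24, edgeR adjusted p = 2.4e-05). Both combination libraries exceeded DMSO, yet they differed from each other, while the levels under nutlin alone (448 and 467 CPM) lay just below the lower of them and those under GSK2830371 alone (549 and 574 CPM) between them. Its log2 difference was 0.59 from nutlin and 0.29 from GSK2830371, and neither was called. Of 16 heme genes, 5 were raised and 2 lowered, with a median of 0.18. For all genes the shares were 22.5% raised and 21.7% lowered. *SLC48A1*, a heme transporter, rose from 47.1 and 50.3 to 218 and 268 CPM (log2 2.32 ± 0.10). *FLVCR1*, a heme exporter, fell from 36.2 and 30.2 to 13.4 and 14.7 CPM (log2 -1.23 ± 0.11).

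*FTH1* and *FTL*, the ferritin chains, were among the genes with the largest gain in CPM. *FTH1* went from 2447 and 3096 to 5855 and 6066 CPM (log2 1.10 ± 0.14) and *FTL* from 3156 and 3955 to 6594 and 5795 CPM (log2 0.80 ± 0.13). Both ferritin genes have processed pseudogenes, so some of their reads may be shared. In the iron list as a whole, 3 of 12 genes were raised and 3 lowered. Of 23 NRF2 targets, 6 were raised and 3 lowered, where 22.5% of all genes were raised and 21.7% lowered. *AKR1B10*, an aldo-keto reductase, rose from 0.913 and 0.868 to 27.2 and 31.9 CPM (log2 5.06 ± 0.15), while *GSR*, glutathione reductase, fell from 134 and 131 to 88.2 and 83.6 CPM (log2 -0.62 ± 0.07), a call lost without combination library 3.

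Part of the ribosomal protein mRNAs rose in these relative units. Of 79 tested cytosolic ribosomal protein genes, 28 were raised and none lowered, with a median log2 change of 0.53, and in K1 none of 79 was called. Of all genes tested in TPC1, 22.5% were raised. By the test of the difference, the effect was higher in TPC1 than in K1 for 33 of the 79, against 13.8% of all genes. The count of 28 leans on single libraries, at 13 without DMSO library 1, 57 without DMSO library 3, 45 without combination library 1 and 14 without combination library 3. *RPS19* of the small subunit stood at 493 and 560 CPM under DMSO and at 1096 and 1182 CPM under both drugs (log2 1.11 ± 0.09). *EEF1A1*, the elongation factor that delivers tRNA, went from 8740 and 10378 to 17682 and 21325 CPM (log2 1.03 ± 0.13), and *EEF2*, which drives translocation, from 3860 and 4024 to 8690 and 9256 CPM (log2 1.19 ± 0.09). Many of these genes have near-identical pseudogene copies, so their counts are less certain. The rise of *RPS2* (log2 0.63) ended short of the fold limit with scaling by library size alone (0.577), without DMSO library 1 (0.466) or without combination library 3 (0.452).

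Of 77 mitochondrial ribosomal protein genes, 2 were raised and 14 lowered (median -0.33), where 22.5% of all genes were raised and 21.7% lowered. The count of 14 was 24 without DMSO library 1, 9 without DMSO library 3, and 23 without combination library 3 or with scaling by library size alone. Of 76 respiratory chain subunits 3 were lowered and none raised (median -0.01), but 7 were lowered without DMSO library 1 and 5 without combination library 3 or with scaling by library size alone. Without DMSO library 3 the counts were 1 lowered and 6 raised, and 3 were raised without combination library 1. *MRPS34* fell from 88.8 and 110 to 35.4 and 37.9 CPM (log2 -1.44 ± 0.11) and *ATP5G1*, a subunit of ATP synthase, from 116 and 126 to 64 and 60.6 CPM (log2 -0.96 ± 0.08).

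Glycolysis was lowered in 12 of 21 genes and raised in 2, with a median of -0.65. Over all genes 21.7% were lowered and 22.5% raised. *LDHA*, lactate dehydrogenase, was at 2257 and 2742 CPM under DMSO and at 546 and 830 CPM under both drugs (log2 -1.86 ± 0.19), and *HK2*, the inducible hexokinase, at 159 and 132 and then 38.7 and 37.4 CPM (log2 -1.94 ± 0.11). *C12orf5* (TIGAR), a p53 target that lowers the glycolytic flux, rose from 22.2 and 22 to 136 and 151 CPM (log2 2.70 ± 0.10). *GAPDH* was at 6023 and 7228 against 5602 and 6681 CPM, ranges that overlap.

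Lipid synthesis genes were lowered in part. Of 24 cholesterol genes, 12 were lowered and 1 raised (median -0.59), and of 11 fatty acid genes 6 were lowered and 1 raised (median -0.72). The shares over all genes were 21.7% lowered and 22.5% raised. *SCD*, the stearoyl-CoA desaturase, went from 613 and 562 to 141 and 102 CPM (log2 -2.27 ± 0.14), and *EBP*, a sterol isomerase, from 44 and 48.2 to 11.7 and 11.3 CPM (log2 -2.01 ± 0.08). The raised cholesterol gene was *TM7SF2*, a sterol reductase, with 2.98 and 2.99 CPM under DMSO and 46.4 and 53.8 CPM under both drugs (log2 4.07 ± 0.11).

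Of 35 lysosomal genes, 17 were raised and 1 lowered (median 0.58), where 22.5% of all genes were raised and 21.7% lowered, and of 34 autophagy genes 16 were raised and none lowered (median 0.49). *TPP1*, a lysosomal peptidase, stood at 112 and 112 CPM under DMSO and at 458 and 341 CPM under both drugs (log2 1.83 ± 0.12). *TP53INP1*, a p53 target active in autophagy, went from 19.5 and 15.2 to 502 and 497 CPM (log2 4.85 ± 0.13). None of the 35 lysosomal genes was higher than under nutlin (1 without combination library 3), and 3 were lower (1 without nutlin library 1).

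Chaperones were mixed. Of 25 genes of endoplasmic reticulum folding, 6 were raised and 3 lowered (median 0.07), and of 19 heat shock chaperones 4 were raised and 8 lowered (median -0.26). Over all genes 22.5% were raised and 21.7% lowered, so both raised counts were near the share of all genes. *HYOU1*, a chaperone of the endoplasmic reticulum, rose from 293 and 272 to 658 and 606 CPM (log2 1.16 ± 0.08). *HSPE1*, the mitochondrial cochaperonin, fell from 85 and 85.5 to 28.6 and 27.9 CPM (log2 -1.59 ± 0.09), and *HSP90AA1*, the inducible HSP90, from 4301 and 4333 to 1995 and 2582 CPM (log2 -0.92 ± 0.13).

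Of 23 cytokines and NF-κB targets, 12 were raised, where 22.5% of all genes were, and 2 were lowered (none by DESeq2's Wald test), with a median of 0.66. *IL6* was at 5.26 and 6.31 CPM under DMSO, 36.5 and 42.4 under nutlin and 106 and 111 under both drugs (log2 4.22 ± 0.13). *CCL2*, a chemokine for monocytes, was at 7.25 and 8.93, 36.4 and 39.1, and 30.4 and 40.1 CPM in the same order, so the nutlin and combination libraries overlapped. Of 11 EGF receptor ligands and receptors, 5 were raised and 1 lowered. *AREG*, an EGF receptor ligand, went from 0.161 and 0.262 to 5.67 and 5.8 CPM (log2 4.66 ± 0.23).

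Interferon-stimulated genes did not move as 1 group, with 9 of 35 raised, 5 lowered and a median of 0.07. Among all genes 22.5% were raised and 21.7% lowered. *TAP1*, the peptide transporter of antigen presentation, rose from 23 and 22.7 to 301 and 308 CPM (log2 3.74 ± 0.08), while *OAS3*, an antiviral sensor, fell from 65.1 and 56.9 to 20.6 and 16.4 CPM (log2 -1.73 ± 0.13).

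The MAPK output list had 6 of 19 genes raised and 8 lowered, where 22.5% of all genes were raised and 21.7% lowered. *DUSP5*, a phosphatase of ERK, rose from 42.4 and 42 to 136 and 155 CPM (log2 1.79 ± 0.09), and *SPRY4*, a feedback inhibitor of receptor signalling, fell from 41.1 and 38.5 to 17.4 and 16 CPM (log2 -1.25 ± 0.10). *CCND1* (cyclin D1) stood at 636 and 599 CPM under DMSO, 716 and 673 under nutlin, 666 and 663 under GSK2830371 and 278 and 276 under both drugs, below every library of the other treatments (log2 -1.16 ± 0.08 against DMSO). In the AP-1, EGR and MYC families, 9 of 21 genes were raised and 8 lowered, with *EGR2* at 0.0268 and 0.0826 CPM and then at 5.89 and 6.51 CPM (log2 6.56 ± 0.42) and *FOSL1* at 532 and 566 and then at 191 and 202 CPM (log2 -1.48 ± 0.08).

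Matrix and adhesion genes were lowered in 10 and raised in 4 of 25 cases, and collagens and laminins were raised in 11 and lowered in 6 of 40. Among all genes 22.5% were raised and 21.7% lowered. *ACTA2*, smooth muscle actin, stood at 8.32 and 8.97 CPM under DMSO and at 126 and 147 CPM under both drugs (log2 3.98 ± 0.11). *HAS3*, a hyaluronan synthase, fell from 203 and 186 to 23.5 and 25.9 CPM (log2 -2.98 ± 0.09). *FN1*, fibronectin, had 4554 and 3066 against 5533 and 3392 CPM, with overlapping groups. *CDH6*, a cadherin also seen in the developing kidney, went from 23.4 and 19.3 to 0.47 and 0.513 CPM (log2 -5.42 ± 0.17), and was at 12.6 and 13.8 CPM under nutlin and 7.43 and 7.84 CPM under GSK2830371. Of 17 proteases and inhibitors of the secretome, 5 were raised and 5 lowered.

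In the Wnt and TGF-β list 9 of 44 genes were raised and 21 lowered (median -0.47), where 22.5% of all genes were raised and 21.7% lowered, with *FZD8*, a Wnt receptor, falling from 35.5 and 32.3 to 4.78 and 3.15 CPM (log2 -3.13 ± 0.16). Semaphorin, ephrin and Notch genes were raised in 15 and lowered in 10 of 43, led by *EFNB1*, an ephrin ligand, at 18.7 and 19.1 and then 262 and 269 CPM (log2 3.81 ± 0.08). Of 14 long noncoding RNAs, 9 were raised and none lowered (median 1.27), among them *NEAT1*, the scaffold of paraspeckles, from 124 and 81.1 to 512 and 440 CPM (log2 2.22 ± 0.24). Genes with ZNF symbols, 432 in number, were raised in 118 cases and lowered in 57 (median 0.19). Of 43 clustered histone genes, whose main transcripts lack a poly(A) tail, 8 were raised and 16 lowered, and the latter count was 9 by DESeq2, 4 without DMSO library 3, 6 without combination library 1 and 10 without combination library 3.

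Thyroid identity markers were divided. Of 9 tested thyroid genes 4 were raised and 1 lowered, and their CPM summed to 357 and 360 under DMSO and 368 and 323 under both drugs. Among all genes 22.5% were raised and 21.7% lowered. *TG*, thyroglobulin, rose from 0.161 and 0.303 to 5.09 and 3.66 CPM (log2 4.10 ± 0.34). It was picked outside the naming rule, as its mean lay below 5 CPM. The largest log2 change of the list was 6.08, in a gene not reported here. *HHEX*, a homeobox gene of the early thyroid, fell from 8.16 and 10.9 to 3.13 and 3.35 CPM (log2 -1.56 ± 0.16). Of 11 keratin and junction genes 2 were raised and 1 lowered, *KRT18* from 334 and 391 to 117 and 145 CPM (log2 -1.47 ± 0.12). Endothelial markers summed to 8.94 and 8.99 CPM under DMSO and 11.6 and 10.0 under both drugs, and markers of neurons and muscle to 112 and 124 against 93.1 and 103 CPM, mainly *TUBB3*. The part of these markers in the results above was not tested.

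**Figure D4:**
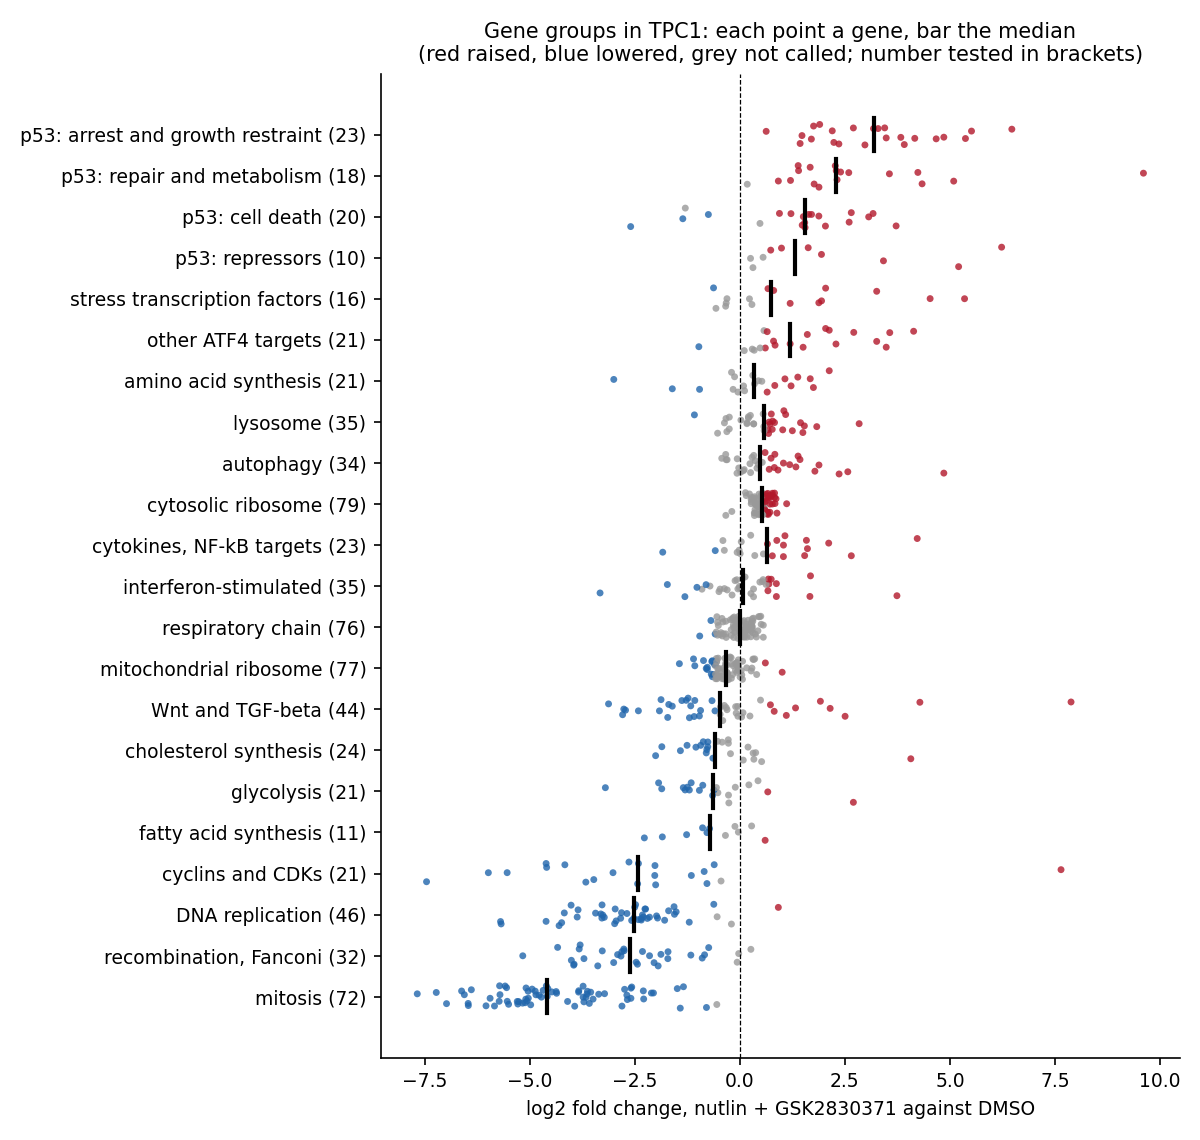
Log2 change of the combination against DMSO in TPC1 (x axis) for each tested member of 22 gene lists (y axis), with points in red (raised), blue (lowered) or grey and a bar at the median of each list. The mitotic list lies lowest (median -4.60) and the p53 arrest list highest (median 3.18).

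The largest relative changes belonged to genes near silence under DMSO. *UNC13A*, a priming factor of synaptic vesicles, was at 0.188 and 0.124 CPM under DMSO (7 and 9 counts) and at 168 and 139 CPM under both drugs (log2 10.01 ± 0.24, edgeR adjusted p = 3.9e-09). *CEACAM1*, a cell adhesion molecule, stood at 0.134 and 0.234 and then at 104 and 110 CPM (log2 9.05 ± 0.16). *LCE1F*, a gene of the cornified envelope of skin, had no count in either DMSO library and 650 and 967 counts under both drugs (18 and 16 CPM), at least 279-fold higher against a floor of 3 counts per library. *LCE1C*, of the same family, likewise had 0 counts and then 223 and 483 counts, at least 116-fold higher. *TREM2*, a receptor of myeloid cells, had 1 and 0 counts under DMSO and 666 and 1549 counts under both drugs.

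Altogether 36 genes had at most 3 counts in each DMSO library and at least 1 CPM in both combination libraries, and 8 genes showed the mirror case. The mirror case included *LGR5*, a Wnt-linked receptor of stem cells, with 2.79 and 2.13 CPM under DMSO and 0 and 1 counts under both drugs, and *VASH2*, a tubulin carboxypeptidase, at 4 and 3.4 and then 0.0553 and 0.0497 CPM. Genes of the cytoskeleton and of glycolysis were among the 8 with the largest losses in CPM. *ACTB* fell from 6682 and 7234 to 3493 and 4193 CPM (log2 -0.86 ± 0.11), *ENO1*, enolase, from 4111 and 4679 to 1597 and 1858 CPM (log2 -1.35 ± 0.11) and *TUBA1B*, an α-tubulin, from 1665 and 2016 to 192 and 212 CPM (log2 -3.19 ± 0.13). Actin and tubulin genes have close copies, so reads may be shared among them.

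To see how much of the end state exceeded that of nutlin alone, the combination was tested against nutlin directly. There 986 genes were higher (6.46%) and 865 lower (5.66%) under both drugs. Of the 3441 genes raised over DMSO, 755 also lay above nutlin and 24 below it, and of the 3309 lowered genes 631 lay below nutlin and 27 above. The count of higher genes rests in part on 1 library, since without nutlin library 3 it was 655, of which 584 were shared. Against GSK2830371 alone, 2971 genes were higher (19.5%) and 2907 lower (19%). Raised genes that exceeded both single drugs numbered 671, and lowered genes below both numbered 554.

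Of the 23 arrest genes 11 were higher than under nutlin and none lower, *CDKN1A* among them (6684 and 6798 CPM under nutlin, log2 difference 0.87 ± 0.12, edgeR adjusted p = 0.001). *MDM2*, at 4128 and 4084 CPM under nutlin, was not called (log2 difference 0.25 ± 0.09). Of 18 repair and metabolism genes 1 was higher, and of 20 death genes 4 were higher (2 with scaling by library size alone) and 2 lower. In the mitotic list 36 of 72 genes were lower than under nutlin, for example *MKI67* with 26.7 and 23.4 CPM under nutlin (log2 difference -1.36), while 4 of 46 replication genes (2 without nutlin library 1 or without combination library 3) and none of 32 recombination genes were.

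Large drops below nutlin, besides that of *CDH6*, were those of *KLHL14*, a BTB-kelch gene, with 6.91 and 6.98 CPM under nutlin and 0.608 and 0.729 CPM under both drugs (log2 difference -3.35), and of *STC1*, a secreted stanniocalcin, with 22.1 and 23.4 and then 3.87 and 4.57 CPM (log2 difference -2.42). *RAB39B*, a small GTPase of vesicle traffic, followed *CHAC1* among the largest gains, with 0.925 and 0.484 CPM under nutlin and 11 and 9.42 CPM under both drugs (log2 difference 3.97).

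K1 shared part of this response. Among 14509 genes tested in both lines the effects correlated at r = 0.677 (Spearman 0.641), a description across genes that share scaling and library depth. Of the genes raised in TPC1 and tested in K1, 25.4% (816 of 3217) were raised in K1, and these were 74.3% of the 1098 genes raised in K1. For lowered genes the shares were 31.5% (997 of 3164) and 83.0% (of 1201). Over all 14509 genes, 3217 were raised in TPC1 and 1098 in K1, and 3164 and 1201 were lowered. Opposite calls were found for 29 genes raised in TPC1 and lowered in K1 and for 24 genes in the reverse order. In a fit of all 16 libraries the effect differed between lines in both directions, higher in TPC1 for 2316 of 16738 (13.8%) and lower for 1991 (11.9%).

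*CDKN1A* was at 109 and 116 CPM under DMSO and at 1512 and 1552 CPM under both drugs in K1, and the log2 effect was 2.74 ± 0.15 larger in TPC1 (edgeR adjusted p = 1.1e-09). *DDIT3* went from 13.3 and 12.9 to 24.7 and 23.9 CPM in K1, and its effect was 4.47 ± 0.18 larger in TPC1 (edgeR adjusted p = 6.4e-11). For *ATF4*, with 411 and 375 and then 741 and 774 CPM in K1, the lines did not differ beyond the limits (log2 -0.25 ± 0.12, edgeR adjusted p = 0.12). *MKI67* went from 558 and 483 to 81.2 and 97.5 CPM in K1 and so kept a larger share of its DMSO level there. The mitotic list had a median of -2.06 in K1, with 70 of 72 genes lowered.

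**Figure D5:**
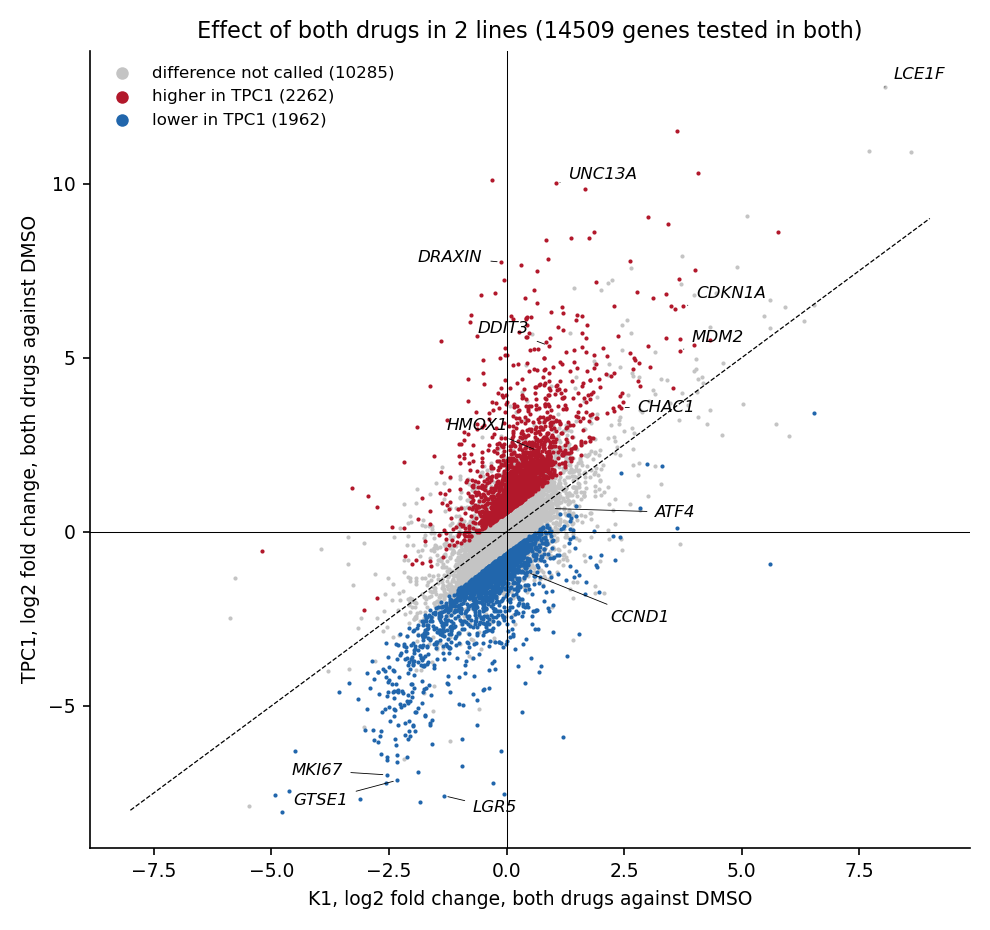
Log2 change of the combination against DMSO in K1 (x axis) and in TPC1 (y axis), 1 point per gene tested in both lines, in red where the effect was higher in TPC1, in blue where it was lower and in grey otherwise, with the dashed line at equal effects. The effects correlated at r = 0.677 across genes, and *DDIT3* lies far above the dashed line (0.89 in K1 and 5.35 in TPC1).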

How the data were processed

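Stranded polyadenylated RNA of TPC1 and K1 was sequenced in 16 libraries, 2 per line and treatment. The authors aligned the reads to GRCh37 and counted those on each gene, and the deposited values are raw read counts per gene symbol without normalization. The submitters' processing notes name TopHat2 2.0.13, Bowtie2 2.2.3.0, SAMtools 1.3.1, Picard 1.129 and HTSeq 0.6.1. The table holds 25369 genes, 4539 of them with no count in any library. TPC1 columns numbered 3 were assigned to their treatment by name, since the labels number the replicates 1 and 2.

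Counts were analysed with edgeR 4.0.16 in R 4.3.3, with DESeq2 1.42.0 as an alternative. Genes above 0.1 CPM in at least 2 TPC1 libraries were kept, and all 8 TPC1 libraries were fitted together with TMM factors (0.961 to 1.04) and the quasi-likelihood test, which leaves 4 residual degrees of freedom. SE is the absolute log2 change divided by the square root of F. A gene is called at a Benjamini-Hochberg adjusted p under 0.05 and a change beyond 1.5-fold. The difference between lines was tested in all 16 libraries. Total counts of 30789887 or more per TPC1 library make counting error small except for genes with few counts, and intervals for it are not given.

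The labels state no pairing of the TPC1 libraries. Differences between numbers 1 and 3 correlated at 0.447 to 0.616 across treatments, so a fit with the number as a block was run beside the unblocked one. Every library numbered 3 was also deeper (62853375 counts or more) than every library numbered 1 (36896529 or fewer). Pairing and a shared difference in depth or run cannot be told apart. The genes, lists and sequences were chosen with earlier results of these data known. By rule, named are the drug targets and genes the study centres on, the 12 largest rises and falls with at least 5 CPM, the 8 largest gains and losses in CPM, up to 3 rises and 3 falls and the most abundant uncalled member of each of 52 lists, genes switched on or off, and the 5 largest differences from K1 and from nutlin each way. Lists are described by counts and medians, with no set test. Gene positions are from GENCODE on GRCh37 (21251 symbols matched) and promoters from RefSeq on GRCh38.p14. The steps were tested on simulated data. Some named genes are not reported here.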

Additional observations from a re-analysis of the deposited data

Results flagged for a closer look

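The results below were picked out because the effect of both drugs against DMSO differed between TPC1 and K1, in edgeR's test of that difference over all 16 libraries. It was higher in TPC1 for 2316 genes and lower for 1991. Groups of 2 libraries are too small for a search for outlying samples, and all columns of the table were used.

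Among the drug targets and the genes the study centres on, the log2 effect in TPC1 exceeded that in K1 by 1.56 for *MDM2*, 0.66 for *PPM1D*, 2.74 for *CDKN1A*, 1.26 for *BBC3*, 2.43 for *ATF3*, 4.47 for *DDIT3* and 1.68 for *HMOX1*. For *EIF2AK1* the difference was -0.67, with a log2 change of -0.45 in TPC1 and 0.25 in K1, neither of which passed the fold limit alone. *HMOX1* began from a higher level in K1, at 407 and 598 CPM under DMSO against 128 and 146 CPM in TPC1.

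The 5 highest fitted differences were those of *UNC13A* (8.98), *DRAXIN* (7.87), *WNT4* (7.76), *LCE1C* (7.57) and *CSTA* (6.95). *DRAXIN*, a secreted guidance factor, was at 0.134 and 0.179 CPM under DMSO and 39.6 and 31.8 CPM under both drugs in TPC1, and between 0.267 and 0.592 CPM in all 4 of those libraries of K1. *CSTA*, a cysteine protease inhibitor, went from 0 and 0.0413 to 5.59 and 7.7 CPM in TPC1 and from 28.3 and 33.0 to 54.7 and 57.5 CPM in K1. *WNT4* and *LCE1C* had few or no counts in K1, so the size of their difference depends on very low levels there.

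The 5 lowest fitted differences were those of *DSC3* (-8.61), *PAX5* (-7.06), *LGR5* (-6.14), *GTSE1* (-4.78) and *NES* (-4.75). *DSC3*, a desmosomal cadherin, was near 0 in TPC1 under both conditions and averaged 0.177 CPM under DMSO and 6.91 CPM under both drugs in K1. In TPC1 under both drugs *LGR5* and *NES* were also at or near 0, so the sizes for these genes and for *PAX5* depend on very low levels. *PAX5*, a transcription factor of B cells, fell from 12.9 and 10.7 to 0.968 and 0.944 CPM in TPC1 and was at or near 0 in K1. *GTSE1*, a microtubule-associated gene of G2 and S phases, fell from 113 and 105 to 0.719 and 0.812 CPM in TPC1 and from 92.0 and 83.0 to 15.8 and 19.1 CPM in K1.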

How the results depend on the processing

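Counts of called genes stayed within 1.5 times the reported ones under DESeq2 size factors, library size alone, other filters, DESeq2's Wald test and the replicate block, and those against DMSO also in a fit of the combination and DMSO libraries alone. The exception was the count higher than under nutlin, 655 without nutlin library 3 against 986. Leaving out each library in turn gave 3236 to 3458 raised and 3167 to 3290 lowered genes, 655 to 1011 higher and 641 to 904 lower than nutlin, 2610 to 3018 and 2746 to 2913 against GSK2830371, and 2131 to 2398 and 1741 to 2045 for the difference between lines. With the replicate block the counts were 3541 raised and 3400 lowered, 3430 and 3298 of them shared with the unblocked fit, and the block changed no call of a named gene against DMSO. Of 4530 values of named genes under alternatives, 41 lost their call, 26 gained one and none of the called genes changed direction. Counts over the gene lists were recomputed under the same settings, a step chosen after seeing the data, and several moved by over 1.5 times, among them those of ribosomal, respiratory chain and histone genes. The median of all genes moved most under library size alone, to -0.0485. With 2 libraries per group and 1 line per model, small changes of variable genes could not be resolved.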
